A study of Mus musculus with 23 samples.

Results

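Transcripts of cancer-associated fibroblasts (CAFs) sorted from MC38 tumors were set against those of whole MC38 tumors. The comparison used 5 of the 23 samples of the series, 2 libraries of FAP+ CAFs (MC38_CAF) and 3 libraries of whole tumor (MC38_tumor), chosen by their labels alone. MC38 is a colon carcinoma line derived from a C57BL/6 mouse. Both groups came from the same model: 500000 MC38 cells were placed under the skin of the flank of adult female C57BL/6 mice, 10 to 15 weeks old per the study's methods, and the tumors received no treatment. For whole tumors, a fragment was lysed directly, so that it held cancer cells, leukocytes, vessels and fibroblasts together. For CAFs, the tumors were digested with collagenase, leukocytes were removed with beads against CD45, and live FAP+ cells were sorted by flow cytometry in 2 separate rounds. The gate was FAP on CD45- cells alone, with no marker that removes cancer cells, endothelial cells or pericytes, and how many mice entered each round is not given in the sources used here. Poly(A) RNA was sequenced without strand information.

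Fibroblasts build and remodel the extracellular matrix, the scaffold of collagens, glycoproteins and proteoglycans between cells. In tumors, activated fibroblasts carry the surface protease FAP and fall into overlapping states: contractile cells with smooth muscle proteins, inflammatory cells that secrete chemokines and acute-phase proteins, antigen-presenting cells with MHC class II, and perivascular cells that share markers with pericytes. Fibroblasts can also hold back T cells through surface ligands, enzymes that deplete amino acids, and cytokines of the TGF-β family. Which of these programs a sorted library carries beyond the whole tumor was the question of the comparison.

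The authors deposited CAF levels as RPKM, read counts scaled by transcript length and library depth, and tumor levels in a table of expected counts, which were turned into RPKM here. The totals behind the tumor RPKM were 25.0 to 35.7 M counts summed over all transcripts. The steps between low CAF values gave totals of 13.2 M counts for CAF library 5 and 9.27 M counts for CAF library 6, the running numbers by which the authors named them, if 1 step is 0.5 counts as in the tumor table. The 2 tables were normalized separately, so no test was run across them, and an exact permutation test of 2 against 3 libraries could not give a one-sided p under 0.1. Instead, genes were ranked within each library, and 12820 genes were kept that reached 1 RPKM in 2 or more of the 5 libraries. A gene under 1 RPKM throughout 1 group could pass only through the other group. The filter then favored a call toward that other group. A gene was called higher in CAFs when its mean log2(RPKM + 1) was at least 1 above that of tumors, relative to the median gene, and both CAF libraries ranked above all 3 tumors. Lower genes were called in the opposite way. Differences below are on this log2(RPKM + 1) scale, which understates the change of low genes, and SE is their standard error over libraries. Before centring, the median gene was 0.33 higher in CAFs on the log2 scale. By this rule 1468 genes (11.5%) were called higher and 1248 (9.73%) lower. Across genes, Spearman's rho was 0.953 between the CAF libraries, 0.971 to 0.983 between tumors, and 0.792 to 0.838 between CAFs and tumors, as a description over genes that are not independent.

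The sort markers separated the groups. *Fap*, on chromosome 2 (mm10, 62500936 to 62574021), stood at 11.4 and 4.29 RPKM in CAF libraries 5 and 6 and at 1.08, 0.314 and 1.66 RPKM in the 3 tumors. Both CAF libraries lay above every tumor, and the difference was 1.74 (SE 0.68). In percentiles of the library, *Fap* stood at 56.9 and 31.5 in CAFs and at 2.3 to 15.4 in tumors. CAF libraries of the other 3 models had 1.89 to 9.91 RPKM of *Fap*. *Ptprc*, which encodes CD45 and lies on chromosome 1 (mm10, 138062859 to 138175305), stood at 0.007 and 0.083 RPKM in CAFs and at 11.2, 9.10 and 13.6 RPKM in tumors. These CAF levels corresponded to 0.5 and 4 counts. In CAF libraries of the other models, *Ptprc* stood at 0.953 and 0.89 RPKM in EO771 and at 0.017 to 0.091 RPKM in LL2 and Pan02. In the dot plot of markers by library, both CAF libraries were higher in *Fap* and nearly without *Ptprc*.

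**Figure D1:**
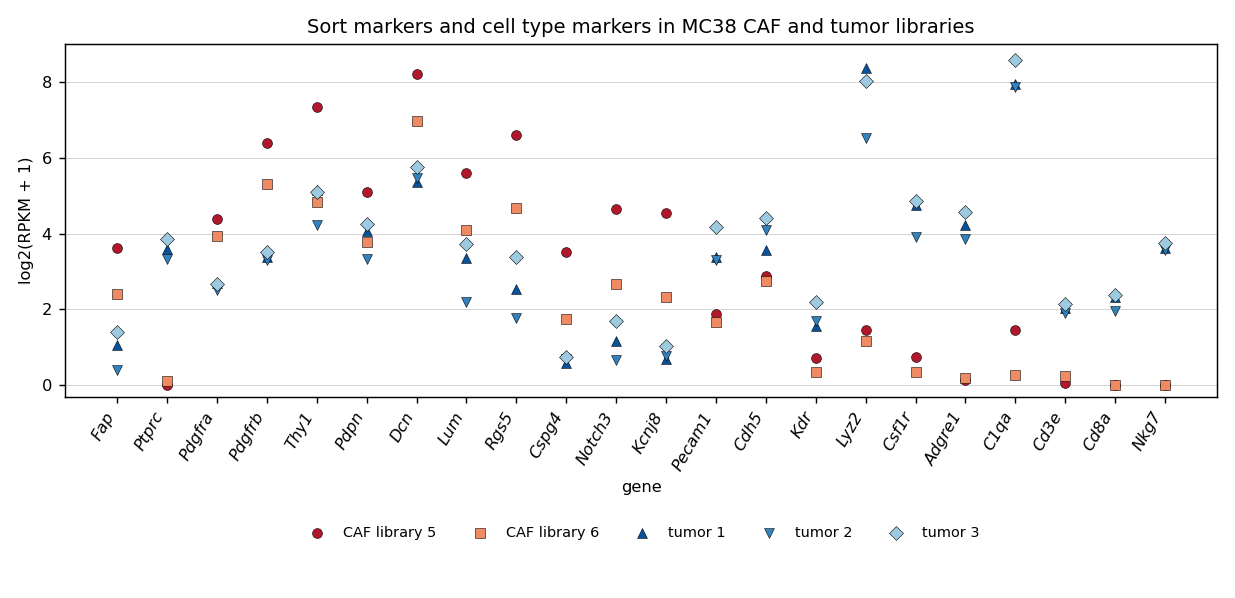
Levels of sort and cell type markers, as log2(RPKM + 1) on the vertical axis, with 1 point per library (2 MC38 CAF libraries, 3 MC38 tumors). *Fap*, *Pdgfrb*, *Dcn* and the pericyte genes *Rgs5*, *Notch3* and *Kcnj8* lie higher in both CAF libraries than in the tumors, whereas *Lyz2* and *C1qa* lie lower in both CAF libraries and *Ptprc* and *Nkg7* lie near 0 there.

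Transcripts particular to MC38 tumors were also in the CAF libraries. From the tumor table alone, 10 genes had a mean of at least 5 RPKM in MC38 tumors and at least 20 times the level of every other model's tumors in each MC38 tumor: *Cyct*, *Efhc2*, *Fam159b*, *Fmr1nb*, *Gm6880*, *Nkx2-5*, *Pitx1*, *Pnma5*, *Sox2* and *Tex13b*. *Fam159b*, the most abundant of them, stood at 61.0 and 58.7 RPKM in CAFs and at 53.8, 70.5 and 43.9 RPKM in tumors. *Fmr1nb* stood at 38.9 and 32.9 RPKM in CAFs and at 26.3, 40.8 and 28.9 RPKM in tumors. *Sox2*, which encodes a stem cell transcription factor, had 2.31 and 6.66 RPKM in CAFs and 6.65, 5.90 and 4.15 RPKM in tumors. Of the 10 genes, *Efhc2* was called lower in CAFs, at 1.26 and 3.17 RPKM against 5.39, 5.41 and 4.59 RPKM, and the other 9 were not called. The median ratio of CAF to mean tumor level was 1.27 in CAF library 5 and 1.30 in CAF library 6. Divided by the ratio of the median gene, the median ratio of the 2 libraries' mean was 0.991. In the 6 CAF libraries of other models, the median ratio was at most 0.00853. The sorted MC38 libraries thus held these transcripts at about the level of the whole tumor. How much of any difference below this mixture of transcripts carries was not tested, and in bulk samples fewer cells of a type and less RNA per cell cannot be told apart.

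**Figure D2:**
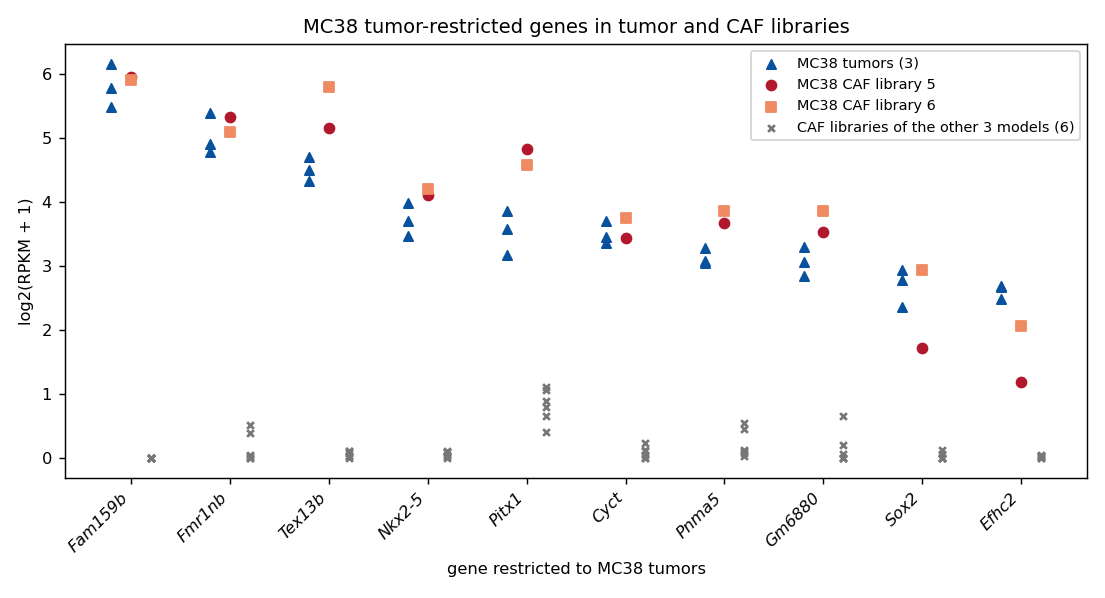
Levels of the 10 MC38 tumor-restricted genes as log2(RPKM + 1), in 3 MC38 tumors, 2 MC38 CAF libraries and 6 CAF libraries of EO771, LL2 and Pan02. Both MC38 CAF libraries lie near the MC38 tumors for most genes, while the other CAF libraries lie near 0, with *Pitx1* reaching 1.16 RPKM.

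The 2 CAF libraries differed from each other in stromal genes. CAF library 5 was at least 2-fold above library 6 for 629 genes and at least 2-fold below it for 80. Among 21 collagens that passed the filter, 19 were higher in library 5 than in library 6, with a median ratio of 2.90. All 30 matrix glycoproteins and proteoglycans that passed the filter were higher in library 5 (median ratio 4.09), as were all 12 pericyte genes (4.56) and all 13 contractile genes (3.80). Among tumors, tumor 2 was the lowest for 13 of the 21 collagens and for 24 of the 30 glycoproteins and proteoglycans. Counts of stromal genes are therefore given below also without library 6 and without library 5.

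Collagens, the main fibers and network formers of the matrix, were higher in CAFs for part of the family. Of 22 collagen genes listed, 21 passed the filter, 9 were called higher (11.5% of all genes were) and none lower, and their median difference was 1.28. *Col1a1*, the main chain of type I collagen on chromosome 11 (mm10, 94936224 to 94953042), stood at 2771 and 467 RPKM in CAFs and at 589, 107 and 595 RPKM in tumors. CAF library 6 lay below 2 of the 3 tumors, so *Col1a1* was not called (difference 1.44, SE 1.52). *Col1a2* had the same order, at 1308 and 249 RPKM in CAFs against 354, 57.7 and 342 RPKM. *Col3a1*, type III collagen, stood at 1855 and 590 RPKM against 398, 92.8 and 356 RPKM and was not called, since by rank CAF library 6 lay just below tumor 1. *Col7a1*, which forms anchoring fibrils, gave the largest difference of the family, 2.34 (SE 0.21), with 42.0 and 46.5 RPKM in CAFs against 7.97, 6.14 and 4.6 RPKM in tumors. *Col27a1*, a fibrillar collagen, stood at 13.0 and 11.4 RPKM against 1.26, 1.43 and 1.35 RPKM (2.16, SE 0.09). For both genes the CAF libraries were close to each other and far above the tumors. All 3 listed chains of type VI collagen, which forms beaded filaments around cells, were called higher, with *Col6a3* at 149 and 77.7 RPKM against 28.1, 21.1 and 20.8 RPKM (1.85, SE 0.49) and *Col6a2* at 622 and 248 RPKM against 87.4, 98.5 and 81.1 RPKM (1.81, SE 0.67). *Col16a1*, a collagen found along fibrils, stood at 179 and 141 RPKM against 33.2, 37.7 and 36.4 RPKM (1.80, SE 0.18). Without CAF library 6, 19 collagens were called higher, and without CAF library 5, 7 were.

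**Figure D3:**
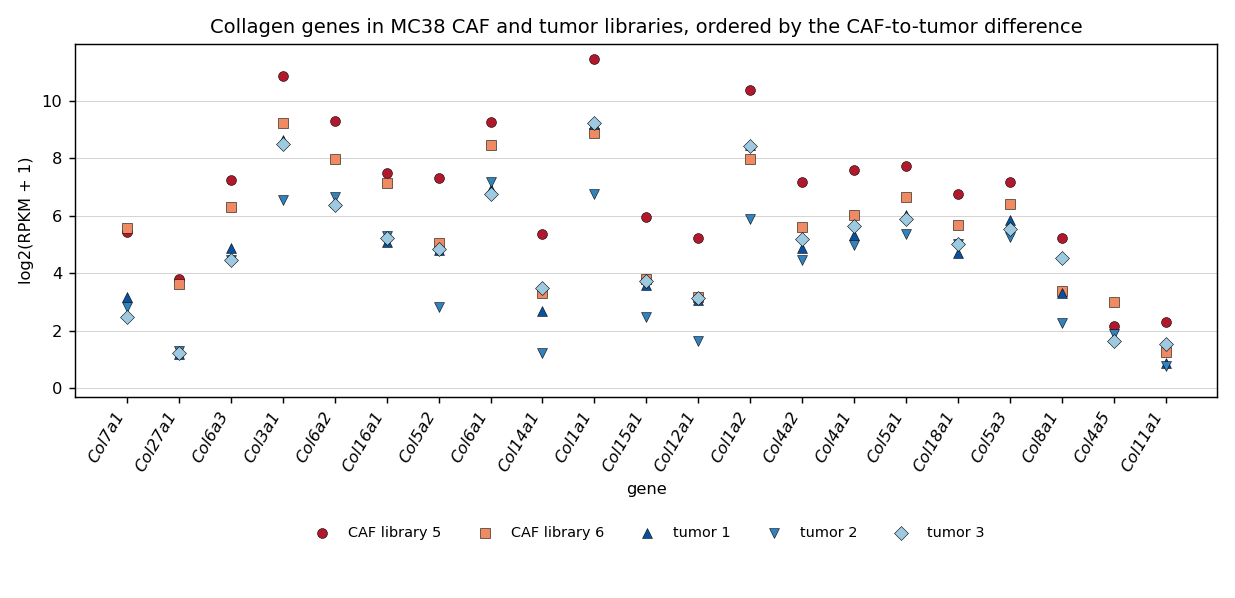
Levels of the 21 collagen genes that passed the filter, as log2(RPKM + 1), with 1 point per library, ordered from left to right by decreasing CAF-to-tumor difference. *Col7a1*, *Col27a1* and *Col16a1* show both CAF libraries together above the tumors, whereas for *Col1a1*, *Col1a2* and *Col14a1* CAF library 6 lies among the tumors.

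Of 20 enzymes that modify and cross-link collagen, all kept, 3 were called higher (11.5% of all genes were) and none lower, and the median difference was 0.77. *P3h3*, a prolyl 3-hydroxylase of collagen chains, stood at 94.3 and 62.9 RPKM in CAFs and at 12.4, 11.7 and 15.3 RPKM in tumors (2.14, SE 0.31). *Bmp1*, the protease that trims procollagen, had 174 and 88.5 RPKM against 35.1, 32.8 and 33.5 RPKM (1.52, SE 0.48), and *Loxl3*, a lysyl oxidase, 87.3 and 39.2 RPKM against 14.9, 16.4 and 17.8 RPKM (1.45, SE 0.57). In each of these, library 6 was the lower CAF library and still above every tumor. *Lox* itself was not called, at 63.3 and 19.7 RPKM against 16.7, 2.52 and 16.5 RPKM with ranks that overlapped. Without library 6 the count was 11, and without library 5 it was 2.

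Among 31 matrix glycoproteins and proteoglycans, 30 passed the filter, with a median difference of 1.13. Of these, 6 were called higher and 1 lower (11.5% and 9.73% of all genes were). *Mgp*, matrix Gla protein, an inhibitor of calcification, had the largest difference, 3.74 (SE 1.46), from 606 and 108 RPKM in CAFs against 9.57, 6.80 and 42.4 RPKM in tumors. The tumors differed several-fold among themselves, with tumor 3 the highest, but stayed below both CAF libraries. *Fn1*, fibronectin, stood at 486 and 248 RPKM against 82.1, 80.7 and 91.1 RPKM (1.70, SE 0.49). The small leucine-rich proteoglycans decorin and lumican were both called higher, *Dcn* at 295 and 125 RPKM against 40.4, 43.2 and 53.0 RPKM (1.73, SE 0.63) and *Lum* at 47.0 and 16 RPKM against 9.19, 3.55 and 12.2 RPKM (1.42, SE 0.88). *Efemp1* had 38.0 and 9.92 RPKM against 6.26, 2.33 and 4.18 RPKM (1.72, SE 0.97). *Tgfbi*, a TGF-β-induced adhesion protein, went the other way, at 16.6 and 4.04 RPKM in CAFs against 63.9, 58.3 and 71.5 RPKM in tumors (-3.12, SE 0.90). Without CAF library 6, 26 of the list were called higher, without CAF library 5, 3 were, and without tumor 3, 12 were.

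Of 20 matrix proteases and their inhibitors, 18 passed the filter, with a median difference of 0.84. Of these, 5 were called higher and 1 lower (11.5% and 9.73% of all genes were). The gelatinase gene *Mmp2* stood at 325 and 152 RPKM in CAFs and at 53.6, 29.3 and 63.5 RPKM in tumors (1.91, SE 0.64). The stromelysin *Mmp11* was alike in both CAF libraries, at 163 and 171 RPKM against 21.9, 55.0 and 35.5 RPKM (1.89, SE 0.37). *Mmp3*, another stromelysin, had 77.5 and 17.3 RPKM against 5.55, 4.13 and 4.83 RPKM (2.38, SE 1.06), and it shares 14.6% of its 31-base words with another locus. The aggrecanases *Adamts1* and *Adamts5* had differences of 1.18 (SE 0.26) and 1.17 (SE 0.48). *Mmp12*, the macrophage elastase, was nearly missing from CAFs at 0.124 and 0.015 RPKM, against 12.4, 2.06 and 4.30 RPKM in tumors. It passed the filter through the tumors alone. *Timp1*, an inhibitor of these proteases, stood at 264 and 83.0 RPKM against 114, 124 and 107 RPKM and was not called. The count of higher genes was 11 without library 6, 4 without library 5 and 3 without tumor 2.

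Of 18 general fibroblast genes, 17 passed the filter, 7 were called higher (11.5% of all genes were) and none lower. The median difference was 1.40. The PDGF receptors that mark fibroblasts and mural cells were called, *Pdgfrb* at 82.3 and 38.2 RPKM in CAFs against 9.39, 8.80 and 10.3 RPKM in tumors (2.12, SE 0.55) and *Pdgfra* at 19.8 and 14.3 RPKM against 5.51, 4.73 and 5.37 RPKM (1.20, SE 0.23). *Mrc2*, the endocytic collagen receptor, stood at 75.2 and 37.8 RPKM against 9.79, 9.47 and 12.4 RPKM (1.92, SE 0.50). *Mfap5*, a microfibril protein, had 161 and 34.5 RPKM against 18.6, 6.07 and 25.2 RPKM (1.97, SE 1.24). *S100a4* stood at 761 and 542 RPKM against 131, 249 and 146 RPKM (1.60, SE 0.37). *Thy1* and *Pdpn*, surface markers used to sort fibroblasts, were not called, with *Thy1* at 162 and 27.3 RPKM against 34.2, 17.6 and 33.4 RPKM and *Pdpn* at 33.1 and 12.7 RPKM against 15.7, 9.10 and 18.1 RPKM. In both, library 5 lay above all tumors and library 6 among them. The mesenchymal transcription factors *Twist1*, *Twist2* and *Prrx1* had differences of 0.44, -0.16 and -0.19 and were not called, and *Vim*, vimentin, stood at 1362 and 991 RPKM against 932, 846 and 770 RPKM (0.13). Without library 6, 12 fibroblast genes were called higher, and without library 5, 5 were.

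Pericyte and vascular CAF genes had the largest share of higher calls of the lists, 8 of 12 (11.5% of all genes were). None was called lower, and the median difference was 1.76. Of the 8, *Cspg4*, *Abcc9* and *Higd1b* stood under 1 RPKM in every tumor, so they passed the filter through the CAF libraries alone. Pericytes wrap capillaries and share *Pdgfrb* with fibroblasts. *Rgs5*, a regulator of G protein signalling and a pericyte marker, stood at 96.6 and 24.6 RPKM in CAFs and at 4.76, 2.40 and 9.37 RPKM in tumors (2.76, SE 1.07). The channel subunit genes *Kcnj8* and *Abcc9* were both called, *Kcnj8* at 22.3 and 4.01 RPKM against 0.627, 0.694 and 1.06 RPKM (2.27, SE 1.11) and *Abcc9* at 7.60 and 1.59 RPKM against 0.495, 0.266 and 0.959 RPKM (1.28). *Higd1b* stood at 21.3 and 2.15 RPKM against 0.173, 0.234 and 0.986 RPKM (2.23, SE 1.43). *Notch3*, the Notch receptor of mural cells, had 24.2 and 5.38 RPKM against 1.24, 0.592 and 2.27 RPKM (2.16, SE 1.04), and *Ndufa4l2* 150 and 53.8 RPKM against 19.3, 10.9 and 18.4 RPKM (2.12, SE 0.77). In all of these library 5 was far above library 6, and library 6 above every tumor. *Des*, desmin, which skeletal muscle also makes, stood at 28.5 and 6.15 RPKM against 12.1, 11.3 and 69.9 RPKM and was not called. Without library 5 the count was 4 higher and 1 lower, and without library 6 it was 8 higher.

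Of 15 contractile genes of myofibroblasts, 13 passed the filter, 4 were called higher (11.5% of all genes were) and none lower. The median difference was 1.67. *Acta2*, α-smooth muscle actin, stood at 229 and 30.3 RPKM in CAFs and at 12.1, 4.36 and 23.8 RPKM in tumors. Its difference was 2.49 (SE 1.58), but by rank CAF library 6 did not lie above tumor 3, so it was not called. *Tagln*, at 201 and 25.5 RPKM against 10.4, 3.86 and 23.4 RPKM, was not called for the same reason. *Myl9*, a myosin light chain, was called at 128 and 20.8 RPKM against 7.74, 3.36 and 13.4 RPKM (2.37, SE 1.37), as were *Myh11*, smooth muscle myosin, at 9.86 and 2.60 RPKM against 0.195, 0.164 and 0.428 RPKM (1.99, SE 0.80), and *Mylk*, its activating kinase, at 15.9 and 8.20 RPKM against 1.69, 2.03 and 2.78 RPKM (1.67, SE 0.46). *Myh11* stood under 1 RPKM in every tumor, so it passed the filter through the CAF libraries alone. *Tpm1* and *Actn1*, which many cells express, had differences of -0.50 and -0.79. The count was 7 without library 6, 2 without library 5 and 8 without tumor 3.

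Of 20 inflammatory fibroblast genes, all kept, 6 were called higher and 1 lower (11.5% and 9.73% of all genes were). The median difference was 0.73. *Cxcl12*, the chemokine that binds CXCR4, stood at 68.2 and 19.5 RPKM in CAFs and at 10.5, 4.59 and 10.4 RPKM in tumors (1.74, SE 0.94). *Cxcl14* had 164 and 38.7 RPKM against 8.41, 5.46 and 13.7 RPKM (2.74, SE 1.09). The acute-phase gene *Saa3* stood at 179 and 108 RPKM against 45.6, 12.2 and 5.48 RPKM (2.81, SE 0.91), complement *C3* at 214 and 44.3 RPKM against 26.8, 11.6 and 27.2 RPKM (1.87, SE 1.19), and the pentraxin *Ptx3* at 28.7 and 16.1 RPKM against 7.45, 2.08 and 2.55 RPKM (1.99, SE 0.60). *Il6*, the cytokine most used to define this state, was low throughout, at 2.94 and 1.81 RPKM in CAFs and 1.12, 0.226 and 0.634 RPKM in tumors (0.71, SE 0.33), and was not called. The monocyte-attracting chemokine *Ccl2* was high in both groups, at 234 and 267 RPKM against 129, 149 and 139 RPKM (0.52). *Cxcl2*, a neutrophil chemokine, was called lower at 0.562 and 1.10 RPKM against 11.6, 1.10 and 3.64 RPKM (-1.78, SE 0.78), with CAF library 6 and tumor 2 at nearly the same level. The count of higher genes was 10 without library 6 and 4 without library 5.

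Growth factors that fibroblasts send to neighboring cells mostly did not separate the groups. Of 31 listed, 23 passed the filter, 2 were called higher and 2 lower (11.5% and 9.73% of all genes were), with a median difference of 0.19. *Vegfa*, the main angiogenic factor, stood at 65.4 and 78.1 RPKM in CAFs and at 30.4, 15.7 and 19.2 RPKM in tumors (1.40, SE 0.30), and *Vegfd*, a lymphangiogenic relative, at 12.3 and 5.69 RPKM against 3.22, 1.83 and 2.20 RPKM (1.16, SE 0.53). *Pdgfb*, the ligand by which endothelial cells recruit pericytes, was called lower, at 1.51 and 0.478 RPKM against 4.88, 4.92 and 9.55 RPKM (-2.22, SE 0.47), as was *Pdgfc* at 1.53 and 1.27 RPKM against 3.90, 2.03 and 4.13 RPKM (-1.15, SE 0.25). *Hgf*, hepatocyte growth factor, had 7.13 and 7.12 RPKM against 7.16, 9.16 and 6.76 RPKM. Neither group stood apart for *Hgf*. Without library 6, 6 factors were called higher, without tumor 3, 4 were, and without library 5, 2 were, when *Vegfd* was not among them. *Pdgfc* lost its call with no centring and with no filter.

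**Figure D4:**
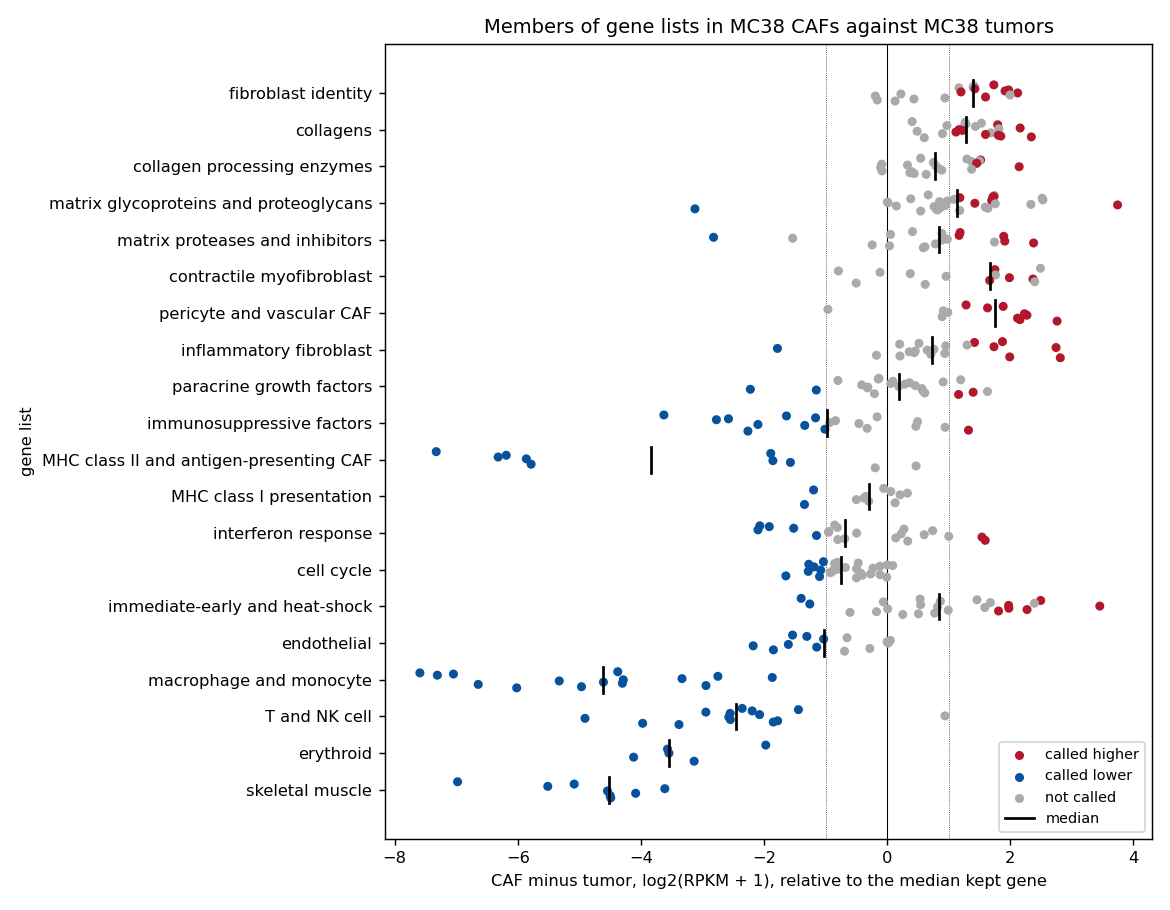
CAF-to-tumor difference, relative to the median kept gene, of the members of 20 gene lists that passed the filter. Red points were called higher, blue points lower, grey points not, black bars are medians, and dotted lines mark a difference of 1 either way. Medians run from 1.76 for pericyte and vascular CAF genes to -4.61 for macrophage and monocyte genes.

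Macrophage genes and most T and NK cell genes were at or near 0 in the sorted libraries. Of 16 macrophage and monocyte genes, 15 passed the filter and all 15 were called lower (9.73% of all genes were), with a median difference of -4.61, or -5.33 with genes at 0 counts in CAFs set to their bound. The summed level of the list was 19.8 and 20.9 RPKM in CAFs and 1406, 966 and 1747 RPKM in tumors. The complement subunit genes *C1qa*, *C1qb* and *C1qc*, products of tissue macrophages, had some of the lowest differences of all genes. *C1qa* stood at 1.76 and 0.2 RPKM in CAFs against 245, 233 and 379 RPKM in tumors (-7.59, SE 0.64). The colony-stimulating factor receptor gene *Csf1r* had 0.678 and 0.266 RPKM against 25.9, 14 and 27.9 RPKM (-4.29). *Lyz2*, lysozyme, had 1.76 and 1.23 RPKM against 326, 90.8 and 257 RPKM (-6.64, SE 0.58), and it shares 32.8% of its 31-base words with another locus. *Ms4a7* had 0 counts in both CAF libraries against 19.6, 20.7 and 33.6 RPKM, which makes it at least 101-fold lower against a floor of 3 counts in the shallower CAF library. *Ccr2*, the receptor of *Ccl2*, was likewise at 0 counts and at least 48.6-fold lower. Of 18 T and NK cell genes, 14 passed the filter and 13 were called lower (median -2.45, or -2.82 with genes at 0 counts at their bound). All 13 stood under 1 RPKM in both CAF libraries, so they passed the filter through the tumors alone. The same held for the macrophage genes *Csf1r*, *Adgre1*, *Itgam*, *Fcgr1*, *Mrc1*, *Ccr2* and *Ms4a7*. It also held for the called granulocyte, dendritic cell and B cell genes below, *S100a9*, *Csf3r*, *Itgax* and *Cd79b*. *Gzmb*, granzyme B, had 0 and 0.036 RPKM in CAFs against 21.7, 26.1 and 22.5 RPKM. *Nkg7* and *Cd8a* had 0 counts in both CAF libraries and were at least 28.7-fold and 35.8-fold lower. *Foxp3*, the other kept gene of the list, stood at 7.35 and 4.83 RPKM in CAFs against 2.01, 1.81 and 1.88 RPKM in tumors, a difference of 0.94 that was not called, while *Cd3e* stood at 0.053 and 0.189 RPKM in the same libraries. Granulocyte genes were low in both groups, with 3 of 8 past the filter and 2 called lower. Dendritic cell and B cell genes did not follow this pattern, with summed levels of 14.1 and 12.5 RPKM in CAFs against 13.0 to 18.0 RPKM for the dendritic cell list and of 5.94 and 6.39 RPKM against 5.25 to 8.45 RPKM for the B cell list. Of 9 dendritic cell genes, 4 passed the filter, with a median difference of 0.03. *Itgax* was called lower, while *Ccr7*, a chemokine receptor, stood at 5.26 and 4.63 RPKM against 2.86, 2.87 and 3.06 RPKM (0.27), and *Batf3* (0.16) and *Zbtb46* (-0.10) were not called either. Of 6 B cell genes, 3 passed. *Cd79b* was called lower and lost the call without library 5 and without tumor 3, while *Cd79a* stood at 5.56 and 4.66 RPKM against 2.11, 3.02 and 2.81 RPKM (0.42) and *Pax5* differed by -0.97, both without a call. The counts of lower macrophage genes and of lower T and NK cell genes were the same without either CAF library, while *Foxp3* was called higher without library 6.

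MHC class II genes present peptides to CD4 T cells and mark antigen-presenting CAFs. All 10 genes listed for class II presentation and antigen-presenting CAFs passed the filter. Of these, 8 were called lower (9.73% of all genes were) and none higher. Their median difference of -3.84 lay between 5 genes at -5.78 or lower and the other genes at -1.89 or higher. *Cd74*, the invariant chain, stood at 2.35 and 2.00 RPKM in CAFs and at 510, 270 and 479 RPKM in tumors (-7.33, SE 0.30). The class II chain genes *H2-Aa*, *H2-Ab1* and *H2-Eb1* had 1.78 and 1.17, 5.40 and 2.32, and 2.12 and 1.59 RPKM in CAFs. In tumors *H2-Aa* stood at 200, 104 and 180 RPKM, *H2-Ab1* at 253, 153 and 249 RPKM and *H2-Eb1* at 150, 85.9 and 147 RPKM. *Ciita*, the transactivator of these genes, had 0.020 and 0.115 RPKM against 3.03, 1.49 and 2.13 RPKM (-1.89), and passed the filter through the tumors alone. The loading chaperones *H2-DMa* (12.5 and 8.99 RPKM against 35.3, 27.9 and 35.0 RPKM) and *H2-DMb1* (12.4 and 10.1 RPKM against 35.0, 23.1 and 26.7 RPKM) were called lower by less, at -1.86 and -1.57. *Slpi* and *Msln*, listed as further markers of antigen-presenting CAFs, were not called, with *Msln* at 33.5 and 29.9 RPKM against 23.0, 15.3 and 16.1 RPKM (0.47).

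Class II promoters share a compact module just upstream of the start site, of which the Y box is one element, and 2 promoters of genes that were called lower together are shown with the letters CTGATTGG of that box in capitals. The search for these letters, on both strands, was chosen after the values were seen. RefSeq (GRCm38.p6) promoters, 250 bases before to 50 bases after a start site, were matched for 6 of the 10 listed genes, and 2 of the 6 held the letters. Among all 32851 promoters, 4.10% held them on either strand. In *H2-Aa* the match began 51 bases before the start and in *H2-Eb1* 62 bases before it, both on the strand of the gene. A match is a description of letters and not a measured site. Each is printed 5′ to 3′ on the gene's strand, *H2-Aa* from the minus strand of chr17:34287774-34288073 and *H2-Eb1* from the plus strand of chr17:34305617-34305916.
H2-Aa: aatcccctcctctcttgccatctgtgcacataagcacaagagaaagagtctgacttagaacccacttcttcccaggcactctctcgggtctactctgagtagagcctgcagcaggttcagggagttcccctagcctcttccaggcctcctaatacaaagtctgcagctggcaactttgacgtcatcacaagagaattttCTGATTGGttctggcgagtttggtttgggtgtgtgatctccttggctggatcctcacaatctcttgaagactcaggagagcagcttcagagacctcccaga
H2-Eb1: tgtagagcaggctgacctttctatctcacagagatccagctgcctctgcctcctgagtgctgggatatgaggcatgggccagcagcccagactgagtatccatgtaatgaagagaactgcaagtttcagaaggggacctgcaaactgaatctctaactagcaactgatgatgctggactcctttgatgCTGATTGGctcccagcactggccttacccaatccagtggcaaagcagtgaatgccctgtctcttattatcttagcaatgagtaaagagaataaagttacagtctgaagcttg

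Of 25 immunosuppressive factors, 18 passed the filter, with a median difference of -0.97. Of these, 1 was called higher and 9 lower (11.5% and 9.73% of all genes were). Of the 9, *Nt5e* and *Entpd1* stood under 1 RPKM in both CAF libraries, so they passed the filter through the tumors alone. *Cd274*, which encodes PD-L1, stood at 3.72 and 4.76 RPKM in CAFs and at 15.3, 8.40 and 13.1 RPKM in tumors (-1.64, SE 0.28). *Ido1*, which degrades tryptophan, had 0.861 and 1.12 RPKM against 12.4, 9.12 and 8.37 RPKM (-2.77, SE 0.18). *Ido2* had 3.71 and 4.74 RPKM against 6.48, 7.62 and 5.32 RPKM (-0.84, SE 0.19) and was not called. The arginine-consuming enzymes *Arg1* and *Nos2* were called lower, *Arg1* at 2.97 and 0.441 RPKM against 79.2, 6.62 and 20.4 RPKM (-3.63, SE 1.22) and *Nos2* at 3.09 and 3.25 RPKM against 22.5, 6.97 and 14.4 RPKM (-2.10, SE 0.46). Both enzymes varied several-fold between tumors and were highest in tumor 1. *Tgfb1* stood at 33.8 and 28.0 RPKM against 46.6, 51.7 and 52.0 RPKM (-1.01, SE 0.14), just past the threshold. It lost the call without CAF library 6, without tumor 3, with no centring and with no filter. The call was also lost at a fold of 4 and when genes that share sequence were left out. *Tgfb3* was the member called higher, at 48.6 and 24.6 RPKM against 7.88, 10.3 and 13.6 RPKM (1.32, SE 0.52), and it lost the call without library 5. *Lgals9*, galectin-9, a ligand of TIM-3, had 66.4 and 42.9 RPKM against 51.3, 66.1 and 59.4 RPKM (-0.46, SE 0.33), with overlapping libraries. *Lgals1*, galectin-1, was among the 10 most abundant genes of both groups, at 2198 and 1360 RPKM against 869, 1156 and 935 RPKM (0.49). Beside these counts, *Ptprc* and the macrophage list were nearly missing from CAFs as given above.

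Of the interferon-response genes, all 21 listed passed the filter, 2 were called higher and 5 lower (11.5% and 9.73% of all genes were), with a median difference of -0.69. *Stat2*, a signal transducer of type I interferon, stood at 89.7 and 106 RPKM in CAFs and at 22.6, 28.1 and 24.8 RPKM in tumors (1.59, SE 0.15), and the antiviral GTPase *Mx1* at 22.0 and 31.9 RPKM against 5.96, 8.35 and 5.60 RPKM (1.54, SE 0.30). The T cell chemokine *Cxcl9* was lower at 14.3 and 3.05 RPKM against 28.0, 18.5 and 31.1 RPKM (-2.07, SE 0.98), and the interferon-γ-induced GTPases *Gbp2* and *Gbp5* had differences of -1.92 (SE 0.16) and -1.52 (SE 0.21). *Ifit2* stood at 2.76 and 3.34 RPKM against 11.9, 13.5 and 13.0 RPKM (-2.10, SE 0.11). Class I presentation genes were abundant in both groups: of 11 listed and kept, 2 were called lower (9.73% of all genes were) and none higher (median -0.30). *H2-K1* had 2329 and 1868 RPKM in CAFs, the highest mean of any gene there, against 1209, 1477 and 1298 RPKM in tumors (0.33), and *B2m* 1622 and 1421 RPKM against 1158, 1355 and 1270 RPKM (-0.06). *Tapbp*, tapasin, which loads peptides, was lower at 201 and 154 RPKM against 319, 415 and 345 RPKM (-1.34, SE 0.22), as was the trimming peptidase *Erap1* (-1.20, SE 0.11).

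Genes of other tissues in the tumor fragment were mostly lower in CAFs. Of 14 endothelial genes, 13 passed the filter, 7 were called lower (9.73% of all genes were) and none higher (median -1.03). *Pecam1*, which encodes CD31, stood at 2.68 and 2.18 RPKM in CAFs and at 9.5, 8.94 and 16.9 RPKM in tumors (-2.18, SE 0.29), and *Cdh5*, vascular cadherin, at 6.33 and 5.71 RPKM against 10.8, 16 and 20.3 RPKM (-1.54, SE 0.26). The endothelial list summed to 89.0 and 48.3 RPKM in CAFs against 70.3 to 134 RPKM in tumors, and 4 genes of the list were called lower without tumor 3. All 8 skeletal muscle genes passed the filter and were called lower (9.73% of all genes were). *Acta1*, skeletal actin, had 1.26 and 0.660 RPKM in CAFs and 169, 75.6 and 564 RPKM in tumors, and the muscle list summed to 416, 154 and 1305 RPKM in the 3 tumors against 7.79 and 5.45 RPKM in CAFs. Of 6 erythroid genes, 5 passed the filter and were called lower, among them *Hbb-bs*, β-globin, at 6.45 and 4.08 RPKM against 124, 30.2 and 158 RPKM, though 4 of the 5 share sequence with paralogs. Of 14 epithelial genes, 12 were under the filter, among them *Epcam* at 0.203 and 0.342 RPKM in CAFs and under 0.1 RPKM in tumors. *Krt8* was called lower on the strength of 17.8 RPKM in tumor 1, against 1.33 and 0.924 RPKM in the other tumors and 0.274 and 0.241 RPKM in CAFs. *Lgals4*, galectin-4 of gut epithelium, was called higher, at 5.86 and 4.69 RPKM against 0.343, 0.369 and 0.084 RPKM (1.98, SE 0.17), but it no longer passed the filter without either CAF library, and *Krt8* lost its call without either. Adipocyte and keratinocyte genes were mostly under the filter, with 2 of 6 and 1 of 6 kept. *Cfd* was called lower but not without either CAF library, and *Fabp4* stood at 86.8 and 32.7 RPKM against 14.3, 13.8 and 33.2 RPKM without a call. Of the lower genes, *Kdr*, *Ckm*, *Myh4*, *Myh1*, *Pvalb*, *Atp2a1*, *Hbb-bt*, *Alas2*, *Krt8* and *Cfd* stood under 1 RPKM in both CAF libraries. They passed the filter through the tumors alone.

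Cell cycle genes were present in the sorted libraries at somewhat lower levels. All 26 listed passed the filter, 7 were called lower (9.73% of all genes were) and none higher. The median difference was -0.74, and without centring 1 was called. *Rrm2*, a subunit of ribonucleotide reductase, stood at 38.0 and 56.6 RPKM in CAFs and at 134, 121 and 99.8 RPKM in tumors (-1.65, SE 0.31). *Mcm4*, of the replicative helicase, had 11 and 13.0 RPKM against 24.5, 25.8 and 22.4 RPKM (-1.28, SE 0.13). *Mki67*, the proliferation marker Ki-67, stood at 10.3 and 15.3 RPKM against 14.7, 11.4 and 10.4 RPKM and was not called (-0.27). The list summed to 683 and 724 RPKM in CAFs and to 859 to 1015 RPKM in tumors, at the same time as the MC38-restricted genes above stood at tumor level. Without CAF library 5, 3 cell cycle genes were called lower, and without CAF library 6, 9 were.

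Immediate-early and heat-shock genes, which stress and handling of cells can induce, were in part higher in CAFs. All 24 listed passed the filter, 6 were called higher and 2 lower (11.5% and 9.73% of all genes were). The median difference was 0.84. *Egr1* stood at 132 and 194 RPKM in CAFs and at 43.4, 11.3 and 20.5 RPKM in tumors (2.49, SE 0.60), and *Jun* at 431 and 520 RPKM against 104, 63.3 and 70.3 RPKM (2.27, SE 0.25). *Hspa1b*, an inducible HSP70, had 57.5 and 97.1 RPKM against 4.46, 3.89 and 5.27 RPKM (3.45, SE 0.39), and shares 68.0% of its 31-base words with another locus. *Atf3*, a stress-induced transcription factor, was lower at 4.65 and 4.35 RPKM against 18.1, 4.96 and 12.5 RPKM (-1.40, SE 0.50), with tumor 2 close to the CAFs. Without CAF library 5, 10 genes were called higher, and without tumor 1, 12 were. CAFs were digested and sorted and tumor fragments were not, so handling and cell type cannot be told apart for these genes. Of 20 glycolysis and hypoxia genes, 5 were called higher (11.5% of all genes were) and none lower (median 0.11). Among the 5 were *Adm*, adrenomedullin, at 17.3 and 9.37 RPKM against 7.20, 2.02 and 2.75 RPKM (1.28, SE 0.60), and *Car9*, a hypoxia-induced carbonic anhydrase, at 41.8 and 43.8 RPKM against 22.4, 11 and 14.9 RPKM (1.08, SE 0.28). The others were *Vegfa*, given above, and *Pgk1* and *Pgam1*, which share 54.7% and 37.1% of their 31-base words with another locus. Of the 20 genes, 8 share at least 10%, and levels of such genes are uncertain across the tables. Without tumor 2, 3 genes of this list were called higher.

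Among genes called higher with at least 10 RPKM in CAFs, the 12 with the largest difference were *Pisd-ps1*, *Rps27rt*, *Rpl28*, *Ppia*, *Gapdh*, *Rps12*, *Rpl17*, *Fau*, *Pisd-ps2*, *Rpl9*, *Rpl10* and *Rps27*. *Gapdh*, a glycolytic enzyme that nearly every cell uses, stood at 790 and 675 RPKM in CAFs and at 8.01, 7.79 and 8.33 RPKM in tumors, and *Ppia*, cyclophilin A, at 313 and 303 RPKM against 2.13, 1.72 and 1.97 RPKM. The CAF-to-tumor difference of *Gapdh* was 6.01 in MC38 and 5.86 to 6.74 in the other 3 models, each relative to its own median gene. All 12 genes share at least 15.9% of their 31-base words with a gene or pseudogene at another locus, *Gapdh* 27.2%. Among all kept genes with a value, 22.3% of the 1113 that share at least 10% were called higher, against 10.4% of the 11619 that share less, and for lower calls the shares were 12.5% and 9.39%. Among the MC38-restricted genes, *Gm6880* shares 84.1% and *Pnma5* 29.4%. How each table treated reads that match several loci is not given in the sources used here, and the levels of such genes are uncertain across the tables. Of the genes named above, *H2-K1*, *H2-DMb1*, *Krt8*, *Rrm2*, *Cd79a*, *Itgax*, *Csf3r*, *Myh4* and *Myh1* share between 10.7% and 37.9%. Without any gene that shares at least 10% or has no such value, 1240 of 11619 genes were called higher and 1068 lower.

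Among genes that share less than 10%, a list drawn up after the values were seen, the 12 largest differences were *Thbs4*, *Tle2*, *Sfi1*, *Mir6935*, *Mgp*, *Tcf15*, *Snord47*, *Snora15*, *Snora61*, *Nrbp2*, *Snord35a* and *Snord99*. *Thbs4*, a thrombospondin of tendon and stroma, stood at 442 and 63.2 RPKM in CAFs and at 2.32, 3.10 and 28.4 RPKM in tumors (4.19, SE 1.72). *Tle2*, a transcriptional corepressor, had 74.5 and 88.4 RPKM against 2.27, 3.53 and 2.95 RPKM (4.08, SE 0.18), and *Sfi1*, a centrosomal protein, 59.9 and 70.3 RPKM against 2.59, 2.53 and 2.26 RPKM (3.93, SE 0.12). For *Tle2* and *Sfi1* library 6 was the higher of the CAF libraries, unlike for *Thbs4* and *Mgp*. *Tcf15*, a mesodermal transcription factor, stood at 30.2 and 33.3 RPKM against 1.07, 1.15 and 0.690 RPKM (3.73, SE 0.13). The 6 entries of small nucleolar RNA or microRNA are 55 to 115 bases long, and reads of such entries cannot be told apart from those of a gene around them. The 12 lowest differences among genes called lower with at least 10 RPKM in tumors were *C1qa*, *Cd74*, *C1qc*, *C1qb*, *Acta1*, *Lyz2*, *Mir5107*, *H2-Aa*, *Ctss*, *Tyrobp*, *Laptm5* and *H2-Ab1*, that is, leukocyte genes except for *Acta1* of muscle and *Mir5107*. By level, the 10 most abundant genes of CAFs were *H2-K1*, *H2-L*, *Lgals1*, *H2-D1*, *Rpl8*, *Col1a1*, *B2m*, *Rps15*, *Rn45s* and *Rps2*, and those of tumors were *Actb*, *H2-L*, *Fth1*, *H2-K1*, *H2-D1*, *B2m*, *Pfn1*, *Rpl8*, *Hsp90ab1* and *Lgals1*. The 2 lists had 6 genes in common, and the 100 most abundant genes of each group had 61 in common, or 61% of each.

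To ask where the MC38 comparison differed from the other models with CAFs, the CAF-to-tumor difference of MC38 was set against the mean of EO771, LL2 and Pan02 with limma over 14277 genes. A factor between the tables cancels in this contrast for levels well above the pseudocount of 1 RPKM, but only in part near it. The difference was larger in MC38 for 678 genes (4.75%) and smaller for 945 (6.62%) at an adjusted p under 0.05 and at least 1 on the log2 scale. The median gene differed by -0.13. Scaled by a median of ratios within each table, the numbers were 800 and 698, so the balance between the directions rested on the scaling. Nothing in the labels says that the libraries of a group came from separate animals, and p-values measure only the spread between these libraries, which may be technical.

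Of 12 pericyte and vascular CAF genes, 6 were larger in MC38 and none smaller, against 4.75% of all genes larger. They were *Rgs5*, *Cspg4*, *Kcnj8*, *Higd1b*, *Ndufa4l2* and *Cox4i2*. *Kcnj8* differed by 2.60 between CAFs and tumors in MC38, by 0.85 in EO771, 2.29 in LL2 and -0.71 in Pan02, before centring, which gave a difference between models of 1.79 (SE 0.46, limma adjusted p = 0.00551). *Rgs5* differed by 3.09 in MC38 against 1.94, 3.05 and -0.51 in EO771, LL2 and Pan02 (1.60, SE 0.55, limma adjusted p = 0.0288). For both genes LL2 was close to MC38 and Pan02 lay apart. Collagens had 2 of 21 larger, *Col16a1* and *Col27a1*. *Col16a1* differed by 2.12 in MC38 against 1.79, 1.34 and -0.57 in EO771, LL2 and Pan02, and *Col27a1* by 2.49 against 2.00, 1.89 and 0.10. Pan02 lay farthest from MC38 for both collagens. Matrix proteases had 2 of 19 larger, *Mmp9* and *Mmp11*, with *Mmp11* at 2.22 in MC38 against 0.66, 1.30 and -1.47 (2.06, SE 0.44, limma adjusted p = 0.00153).

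Of the 10 genes listed for class II presentation and antigen-presenting CAFs, the differences of 4, *H2-Aa*, *H2-Ab1*, *H2-Eb1* and *Cd74*, were smaller in MC38, that is, more negative. *Cd74* differed by -7.00 between CAFs and tumors in MC38, -6.84 in LL2, -2.71 in EO771 and -1.85 in Pan02 (-3.20, SE 0.76, limma adjusted p = 0.00336), so MC38 and LL2 stood together. *Ptprc* was highest in the EO771 CAF libraries, at 0.953 and 0.89 RPKM, and stood at 0.089 and 0.091 RPKM in those of Pan02. How leukocyte transcripts in CAF libraries bear on these differences was not tested. Of 26 cell cycle genes, 8 were smaller in MC38 and none larger, against 6.62% of all genes smaller. *Mcm4* differed by -0.95 in MC38 against 0.44, 0.38 and 1.22 in EO771, LL2 and Pan02 (-1.63, SE 0.16, limma adjusted p = 3.63e-06). Of 24 immediate-early and heat-shock genes, 9 were smaller and none larger. *Hspa1a* differed by 2.30 in MC38 against 6.53, 5.30 and 5.25 (-3.39, SE 0.40, limma adjusted p = 1.45e-05), and *Atf3* by -1.07 against 3.09, 2.82 and 3.18 (-4.10, SE 0.74, limma adjusted p = 0.000476). *Ido1*, lower in MC38 CAFs than in MC38 tumors, differed by -2.45 in MC38 against -0.03, 0.60 and 0.41 (-2.77, SE 0.27, limma adjusted p = 3.97e-06). *Fap*, *Ptprc*, *Col1a1*, *Acta2*, *Cxcl12*, *Il6*, *Nos2*, *Arg1* and *Cd274* did not pass this test. Genes restricted to the tumors of another model were likewise in that model's CAF libraries, at median ratios of 1.91 to 2.04 in Pan02 (22 genes), 1.25 to 1.31 in EO771 (2 genes) and 1.96 to 2.30 in LL2 (1 gene).

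**Figure D5:**
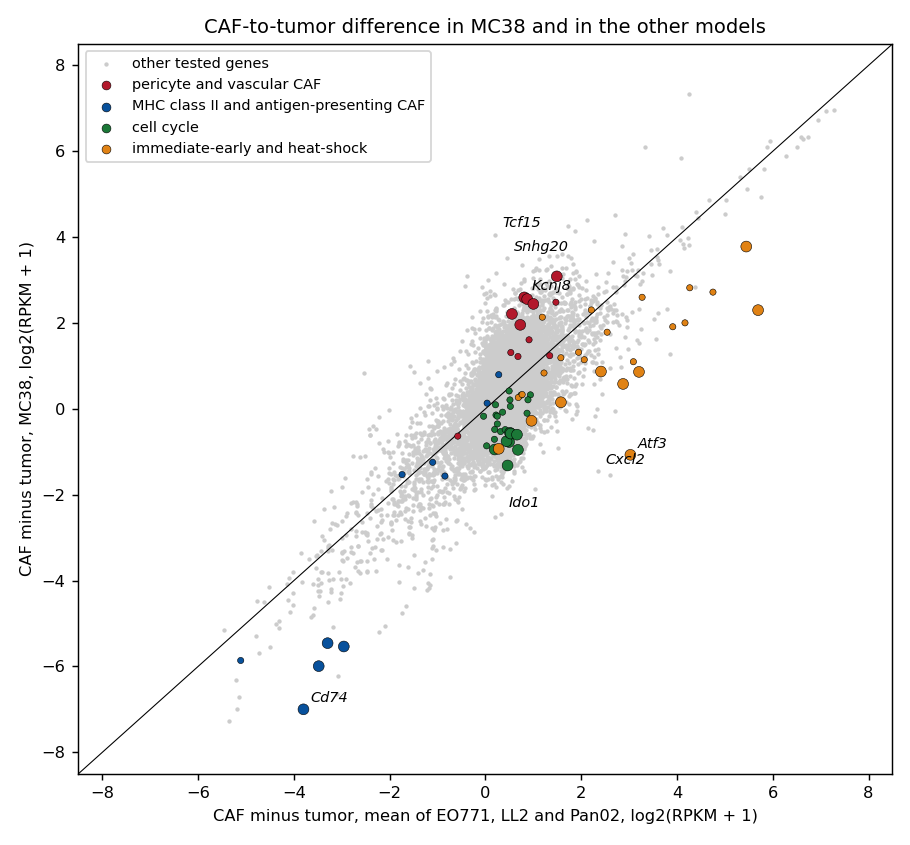
CAF-to-tumor difference of 14277 genes in MC38 (vertical axis) against the mean of EO771, LL2 and Pan02 (horizontal axis), both as log2(RPKM + 1) before centring, with the line of equal differences. Colored points are members of 4 lists, large where the limma test was passed: the pericyte and vascular CAF genes that passed lie above the line, and the MHC class II, cell cycle, and immediate-early and heat-shock genes that passed lie below it.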

How the data were processed

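RNA of FAP+ CAFs and of whole tumors was sequenced from poly(A) libraries. Per the submitters' processing notes, STAR 2.5.0c, HOMER and DESeq2 were used with mm10, in no stated order. The authors deposited CAF levels as RPKM per transcript and tumor levels in a table of expected counts per transcript, in steps of 0.5. Neither file held fold changes or p-values. Another 5 columns of per-sample values matched no sample used here and were left out, and 2 transcripts that name no gene, at most 1.7e-05% of counts in a library, stayed out of totals.

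Tumor expected counts were divided by transcript length and by the column total to give RPKM. For each of 24940 gene symbols, the transcript with the largest mean MC38 tumor count was used in all libraries (40458 transcripts matched by ID). Genes that reached 1 RPKM in 2 or more libraries were kept. The pseudocount was 1 RPKM, and a call needed a fold of 2 relative to the median kept gene (the centring step) and ranks that did not overlap between groups. The CAF totals were recovered from the steps of low RPKM values, all within 0.05 counts of a multiple of 0.5. A floor of 3 counts in the CAF library where it is higher gave the bounds, which cover counting error only. Shared sequence was counted as the percent of a transcript's 31-base words found in a gene at another locus. The difference between models was tested with limma 3.58.1 in R 4.3.3 on log2(RPKM + 1), with Benjamini-Hochberg adjustment over 14277 genes. Tested on simulated data with that many genes, it recovered 93 of 100 genes changed by 2 on the log2 scale and 97 of 100 changed by 3, with 6 false calls. The simulation drew independent normal noise with a single spread per gene and added the offset between tables on the log2 scale. It did not copy the joint shift of stromal genes between the CAF libraries, so the number of false calls need not hold for these data.

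The members and lists were chosen with earlier results of these data known. Genes named by rule were the sort markers and genes the study names for CAFs, the 12 largest differences in each direction among genes of at least 10 RPKM, up to 5 called members of a list in each direction, the 6 largest differences between models in each direction that were also called that way in MC38, and the 10 most abundant genes of each group. Other genes, in particular list members named without a call, were chosen after their values were seen. The alternatives tried were other scalings, pseudocounts, filters, folds and transcripts, and leaving out a library or model. Those on shared sequence and on restricted genes were chosen after seeing the data. One further result is not reported here.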

Additional observations from a re-analysis of the deposited data

Results flagged for a closer look

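The CAF-to-tumor difference of 12 genes differed between MC38 and the mean of EO771, LL2 and Pan02 by the limma test and ranked among the 6 largest in its direction of those also called in MC38. Groups of 2 or 3 libraries were too small to look for outlying samples.

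The difference was larger in MC38 for *Tcf15* by 3.86 (SE 0.19, limma adjusted p = 1.54e-08), from 4.06 in MC38 against 0.14, 0.59 and -0.12 in EO771, LL2 and Pan02. *Lgals7*, galectin-7, was larger by 3.48 (limma adjusted p = 0.00718), with 53.6 and 34.5 RPKM in MC38 CAFs and 3.81, 5.03 and 3.72 RPKM in MC38 tumors. Non-coding entries followed, *Rpph1* by 3.30 (limma adjusted p = 0.000337), *Snhg20* by 3.06 (limma adjusted p = 6.89e-06) and *Mir5136* by 2.96 (limma adjusted p = 0.000488). *Snhg20* stood at 383 and 303 RPKM in MC38 CAFs against 27.5, 30.6 and 29.3 RPKM in MC38 tumors. *Pisd-ps1* was larger by 3.08 (limma adjusted p = 1.16e-07), and it shares 27.7% of its 31-base words with another locus.

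The difference was smaller in MC38 for *Mir207* by -4.13 (limma adjusted p = 6.61e-06), an entry with 0 and 1.38 RPKM in MC38 CAFs. *Atf3* followed at -4.10 (limma adjusted p = 0.000476) and *Cxcl2* at -3.80 (limma adjusted p = 0.00237). *Cxcl2* differed by -1.46 in MC38 and -1.28 in LL2, against 3.85 in EO771 and 4.46 in Pan02. *Cd74* was smaller by -3.20 (limma adjusted p = 0.00336). *Gzmf*, a granzyme, was smaller by -3.17 (limma adjusted p = 0.000717), with 0.420 and 0.120 RPKM in MC38 CAFs against 23.0, 14 and 18.2 RPKM in tumors, and it shares 19% of its 31-base words with another locus. *Mir5107* was smaller by -3.14 (limma adjusted p = 0.00495).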

How the results depend on the processing

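Of 1468 genes called higher and 1248 called lower, no centring left 2431 and 765 (76.1% higher against 54.1%), scaling each library to the same sum 2208 and 1882, a pseudocount of 0.1 RPKM 2035 and 1647, no filter 2088 and 941 (68.9% higher), a filter of 5 RPKM 1113 and 820, and a fold of 4 left 272 and 352 (43.6% higher), without *Fap*. Leaving out 1 library gave 1344 to 1693 and 1048 to 1388. Between models, 678 genes were larger and 945 smaller. A pseudocount of 0.1 RPKM gave 978 and 1589, leaving out 1 MC38 library 606 to 895 and 840 to 1126, and a median of ratios 800 and 698 (53.4% larger against 41.8%). The median ratio of the MC38-restricted genes, 1.24, ran from 1.07 to 1.52 without 1 library and was 0.991 relative to the median gene. The cause of these shifts was not tested. Of 151 called genes named by rule, 55 kept the call in every alternative, 29 kept it wherever they passed the filter but had no value in at least 1, and none of the 176 genes named by rule changed direction while called. All 12 flagged genes, picked for the size of their difference between models, kept their direction and their side of the threshold in all 144 pairs of a gene and an alternative fit. No paired analysis was possible because the CAF columns carry running numbers and no replicate number shared with tumors. Depth limits CAF levels of genes near 1 count, and the CAF totals assume steps of 0.5 counts.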

Other observations

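*Foxp3*, the transcription factor of regulatory T cells, stood at 7.35 and 4.83 RPKM in MC38 CAFs and at 2.01, 1.81 and 1.88 RPKM in MC38 tumors, in libraries where *Cd3e* and *Cd3g* were at or near 0. Its CAF-to-tumor difference was 1.27 in MC38 against 0.21, -0.11 and -0.09 in EO771, LL2 and Pan02, a difference between models of 1.26 (SE 0.25, limma adjusted p = 0.000991). *Lgals4* differed by 2.31 in MC38 and by 1.15, 1.58 and 1.98 in the other models, which was not past the fold set for a call (0.74, SE 0.17, limma adjusted p = 0.00222).

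Among cell types outside the sort, 2 of 8 skeletal muscle genes, *Myh4* and *Pvalb*, had a smaller difference in MC38 than the mean of the other models by the limma test, as did 3 of 14 endothelial genes, *Pecam1*, *Kdr* and *Tie1*. Of all genes, 6.62% had a smaller difference. *Pecam1* differed by -1.85 in MC38 and -2.00 in Pan02, against -0.41 in EO771 and 0.36 in LL2, and *Tie1* by -1.52 in MC38 and -1.65 in Pan02, so that Pan02 was more negative than MC38 for both. Of 14 reference genes, 3 were called higher and 1 lower in MC38 CAFs (11.5% and 9.73% of all genes were). Of the 14, 8 share at least 10% of their 31-base words with another locus.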
